A study of Homo sapiens with 12 samples.

Results

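The 34 genes described here encode the machinery that cuts pre-mRNA at its 3′ end, adds the poly(A) tail and ends transcription: the cleavage and polyadenylation specificity factor (CPSF), cleavage factors I and II (CFI and CFII), the cleavage stimulation factor (CSTF), poly(A) polymerases, termination factors, and proteins that bind or phosphorylate the C-terminal domain (CTD) of RNA polymerase II. They were chosen by name from these known roles, though with earlier results of these data known. All 34 were found among the 58780 gene IDs of each library, and all 34 were among the 26688 genes with at least 10 counts over the 12 libraries.

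The Flp-In T-REx derivative of HEK293 was used, a line made from human embryonic kidney and built to carry inducible transgenes. Poly(A)-selected RNA was sequenced after transfection of siRNAs, with 3 libraries in each of 4 groups, called biological replicates in the series text: triple KD (siRNAs against SAFB1, SAFB2 and SLTM together), SAFB1 KD, SLTM KD, and control (negative control siRNA). All groups, control included, were transfected with siRNA and harvested on the second day, and the single knockdowns also received negative control siRNA. The p-values measure the spread between these libraries, and libraries with SAFB2 alone knocked down were not analysed here. SAFB1, SAFB2 and SLTM are related nuclear RNA-binding proteins, and the study asked whether their loss lets cryptic splice sites and poly(A) sites inside transposons be used, so the RNA level of the factors that read poly(A) sites is the quantity set out here.

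In the textbook view, CPSF reads the AAUAAA signal and its endonuclease CPSF3 cuts the RNA, CSTF binds downstream of the cut, CFI binds UGUA upstream and favours distal sites, and CFII, through PCF11, couples cleavage to the polymerase. Poly(A) polymerase then extends the end, while the exonuclease XRN2 degrades the RNA still attached to the polymerase, which helps it to stop. Kinases of the CDK12 type and the CTD-binding proteins SCAF4 and SCAF8 restrain the use of early poly(A) sites within genes.

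The siRNAs are shown because they define the groups. Each is the sense strand, 5′ to 3′, with the stretch that pairs with the seed of the guide strand in capitals.
SAFB1 siRNA: ggaccaagaugAUCAGAAatt
SAFB2 siRNA: ggacggucgugAUGGAUAatt
SLTM siRNA: gcauuagaauaAUUCGUGatt
On GRCh38 they match coding sequence of SAFB, the gene of SAFB1 (chr19:5654145-5654163, exon 12 of 21), of SAFB2 (chr19:5598848-5598866, exon 13 of 21) and of SLTM (chr15:58890402-58890420, exon 15 of 21). SAFB stood at 36.9, 37.9 and 40.0 CPM (counts scaled to library size) in triple KD, 45.6, 44.3 and 46.1 in SAFB1 KD, and 232, 235 and 230 in control libraries. SAFB2 stood at 28.2, 28.7 and 30.4 CPM in triple KD and 125, 125 and 129 in control. SLTM stood at 22.6, 25.8 and 26.6 CPM in triple KD, 19.6, 19.3 and 22.7 in SLTM KD, and 114, 117 and 116 in control. Every targeted gene was low in its own libraries, and the groups did not overlap. SAFB2 was also 0.73 ± 0.024 higher on the log2 scale (SE; adjusted p = 4.17e-34) in SAFB1 KD than in control. SLTM was 0.26 ± 0.031 higher in SAFB1 KD (adjusted p = 2.16e-09), and SAFB2 0.14 ± 0.024 higher in SLTM KD (adjusted p = 1.155e-05), each against control.

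Library depth was 56856228 to 75533510 counts, and log2 CPM correlated at 0.9984 to 0.9993 between replicates across the 9970 genes that averaged 10 CPM or more, called expressed genes below. The 7 HEK293 marker genes on the list summed to 1600.0 to 1630.0 CPM in triple KD, with 5 of the 7 lower there, against 1690.0 to 1720.0 CPM in control. They summed to 1690.0 to 1730.0 CPM in SAFB1 KD and 1760.0 to 1790.0 CPM in SLTM KD. The squamous and leukocyte marker lists summed to at most 0.236 and 0.861 CPM in any library, and of the squamous list SPRR1B was at 0 in all. The fibroblast list summed to 13.4 to 16.3 CPM, and the colon epithelium list to 172 to 188 CPM, with ranges in triple KD of 14.0 to 14.4 and 181 to 185 CPM. The part of these marker levels in the members' values was not tested. In such bulk RNA, fewer cells of a kind and less RNA per cell cannot be told apart, and a gene count does not show which poly(A) site a transcript used.

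Knockdown of SAFB1, SAFB2 and SLTM together was followed by small changes in most of these factors, more often upwards. In triple KD, 22 of 34 members rose and 7 fell against control, at an adjusted p under 0.05 in edgeR's quasi-likelihood test, the test behind every adjusted p here. Across all genes tested the background was 19.4% higher and 20.9% lower (40.3% in all), and among the 9970 expressed genes, to which all 34 members belong, it was 33.9% higher and 37.3% lower (71.2% in all). The members' shares were 64.7% higher and 20.6% lower (85.3% in all). Their median log2 fold change was 0.09, against -0.0044 over all genes tested and -0.011 over the expressed genes. In absolute size the median was 0.11 in members, against 0.274 over all genes tested and 0.144 over the expressed genes. The expressed genes were not matched to the members' levels. The members together took 0.422% to 0.429% of each library's counts in triple KD and 0.397% to 0.401% in control. In 29 members (85.3%) the 3 triple KD libraries did not overlap control, beside 48.1% of all genes tested and 76.5% of expressed genes. The changes were small, and the members ran from -0.22 to 0.77 on the log2 scale in triple KD. In edgeR's test for a change over 2-fold, 0 of 34 members passed in triple KD, SAFB1 KD or SLTM KD, also at an unadjusted p under 0.05 and in DESeq2. Over all genes tested, 0.955% passed in triple KD (3.56% unadjusted), 0.0262% in SAFB1 KD (1.0% unadjusted) and 0.00749% in SLTM KD (0.929% unadjusted).

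**Figure D1:**
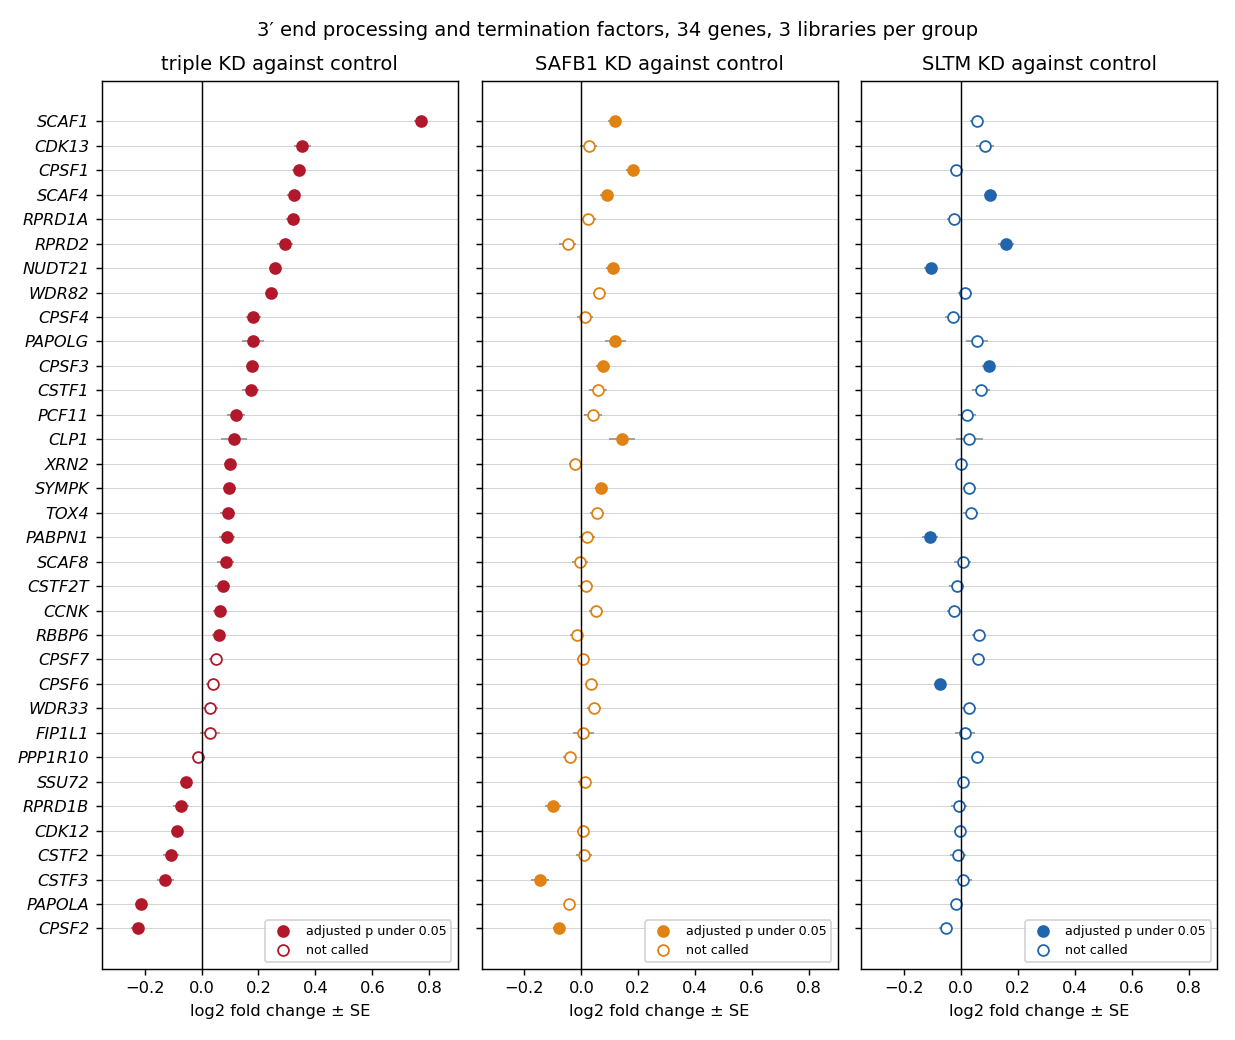
Log2 fold change (horizontal axis) of the 34 members (vertical axis, ordered by their value in triple KD) in triple KD, SAFB1 KD and SLTM KD against control, with bars of 1 SE; filled points passed an adjusted p of 0.05. SCAF1 stands apart at 0.77 in triple KD, CPSF2 and PAPOLA are lowest at -0.22 and -0.21, and all members lie between -0.15 and 0.18 in the single knockdowns.

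The SCAF and RPRD families, whose members hold the polymerase tail through a CTD-interaction domain or an SR-rich region, include SCAF1, the member with the largest change in triple KD. Of these 6 CTD-binding genes, 5 rose and 1 fell in triple KD, beside 33.9% of expressed genes higher and 37.3% lower. The median of the 6 was 0.31 on the log2 scale in triple KD, 0.0093 in SAFB1 KD and 0.030 in SLTM KD. SCAF1, an SR-related CTD-associated factor, had 217, 218 and 211 CPM in triple KD, 139, 137 and 135 CPM in SAFB1 KD, 132, 130 and 132 CPM in SLTM KD, and 128, 125 and 126 CPM in control. Its triple KD libraries lay far above the other 9, and the single knockdowns lay slightly above control without overlap. SCAF1 rose by 0.77 ± 0.022 (log2 ± SE, adjusted p = 4.19e-38) in triple KD, or 1.70-fold, and by 0.12 ± 0.023 (adjusted p = 0.000163) in SAFB1 KD, while its value in SLTM KD was 0.054 ± 0.023 (adjusted p = 0.145).

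SCAF4 and SCAF8 are paralogues known as anti-terminators that keep the polymerase from using early poly(A) sites. SCAF4 had 162, 163 and 160 CPM in triple KD, 136, 140 and 136 CPM in SAFB1 KD, 141, 139 and 136 CPM in SLTM KD, and 132, 129 and 127 CPM in control. Control libraries were lowest, the single knockdowns overlapped each other in between, and triple KD was highest. SCAF4 rose by 0.32 ± 0.023 (adjusted p = 5.56e-19) in triple KD, 0.089 ± 0.023 (adjusted p = 0.00621) in SAFB1 KD and 0.10 ± 0.023 (adjusted p = 0.00137) in SLTM KD. SCAF8 had 79.0, 80.4 and 79.0 CPM in triple KD, 76.5, 73.5 and 74.1 CPM in SAFB1 KD, 78.0, 77.1 and 70.6 CPM in SLTM KD, and 76.4, 74.5 and 74.1 CPM in control. It rose by 0.085 ± 0.029 (adjusted p = 0.013) in triple KD, and its single knockdowns overlapped control. Of the annotated exon bases of SCAF8, 13.1% are shared on the same strand with TIAM2, so some of its reads could not be assigned with certainty.

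RPRD1A and RPRD1B form scaffolds on the CTD that recruit phosphatases, and RPRD2 is a larger relative. RPRD1A had 96.7, 97.8 and 95.3 CPM in triple KD, 79.2, 79.3 and 77.2 CPM in SAFB1 KD, 77.4, 77.1 and 73.5 CPM in SLTM KD, and 77.6, 77.5 and 76.8 CPM in control. Only triple KD stood apart among these groups, by 0.32 ± 0.026 (adjusted p = 1.15e-16) against control. RPRD1B went the other way, with 58.6, 60.2 and 58.4 CPM in triple KD, 59.1, 57.8 and 57.0 CPM in SAFB1 KD, 60.8, 62.8 and 61.7 CPM in SLTM KD, and 62.6, 62.4 and 61.3 CPM in control. It fell by 0.071 ± 0.028 (adjusted p = 0.0378) in triple KD and by 0.099 ± 0.028 (adjusted p = 0.0147) in SAFB1 KD, and its SLTM KD libraries overlapped control.

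RPRD2 separated SLTM KD from SAFB1 KD. It had 80.7, 86.3 and 85.4 CPM in triple KD, 64.9, 68.0 and 66.2 CPM in SAFB1 KD, 79.1, 76.4 and 74.3 CPM in SLTM KD, and 68.0, 69.0 and 68.9 CPM in control. Triple KD and SLTM KD lay above control without overlap, and SAFB1 KD reached into the control range from below. The rises were 0.29 ± 0.028 (adjusted p = 7.90e-14) in triple KD and 0.16 ± 0.029 (adjusted p = 4.12e-05) in SLTM KD, and SAFB1 KD was 0.21 ± 0.029 lower than SLTM KD on the log2 scale (adjusted p = 1.17e-07).

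Among the CTD kinases, CDK12 and CDK13, which pair with cyclin K (CCNK) and support elongation and the use of distal poly(A) sites, moved apart. CDK13 had 63.6, 64.2 and 62.3 CPM in triple KD, 49.9, 51.1 and 50.5 CPM in SAFB1 KD, 52.7, 53.8 and 51.1 CPM in SLTM KD, and 50.6, 48.8 and 49.4 CPM in control. It rose by 0.35 ± 0.029 (adjusted p = 3.56e-16) in triple KD, or 1.28-fold, and its SLTM KD libraries, though above every control library, did not pass the test at 0.084 ± 0.030 (adjusted p = 0.0692). They passed with upper-quartile factors (adjusted p = 0.0156), filterByExpr (adjusted p = 0.0366) and without SLTM KD replicate 3 (adjusted p = 0.0418). CDK12 had 212, 217 and 213 CPM in triple KD, 224, 230 and 232 CPM in SAFB1 KD, 227, 231 and 221 CPM in SLTM KD, and 226, 228 and 228 CPM in control. It was lower in triple KD than in any other library, by 0.086 ± 0.021 (adjusted p = 0.000521) against control. CCNK rose by 0.065 ± 0.025 (adjusted p = 0.0299) in triple KD, with means of 108 ± 2.5 CPM there and 103 ± 2.5 CPM in control (SD, n = 3 each).

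**Figure D2:**
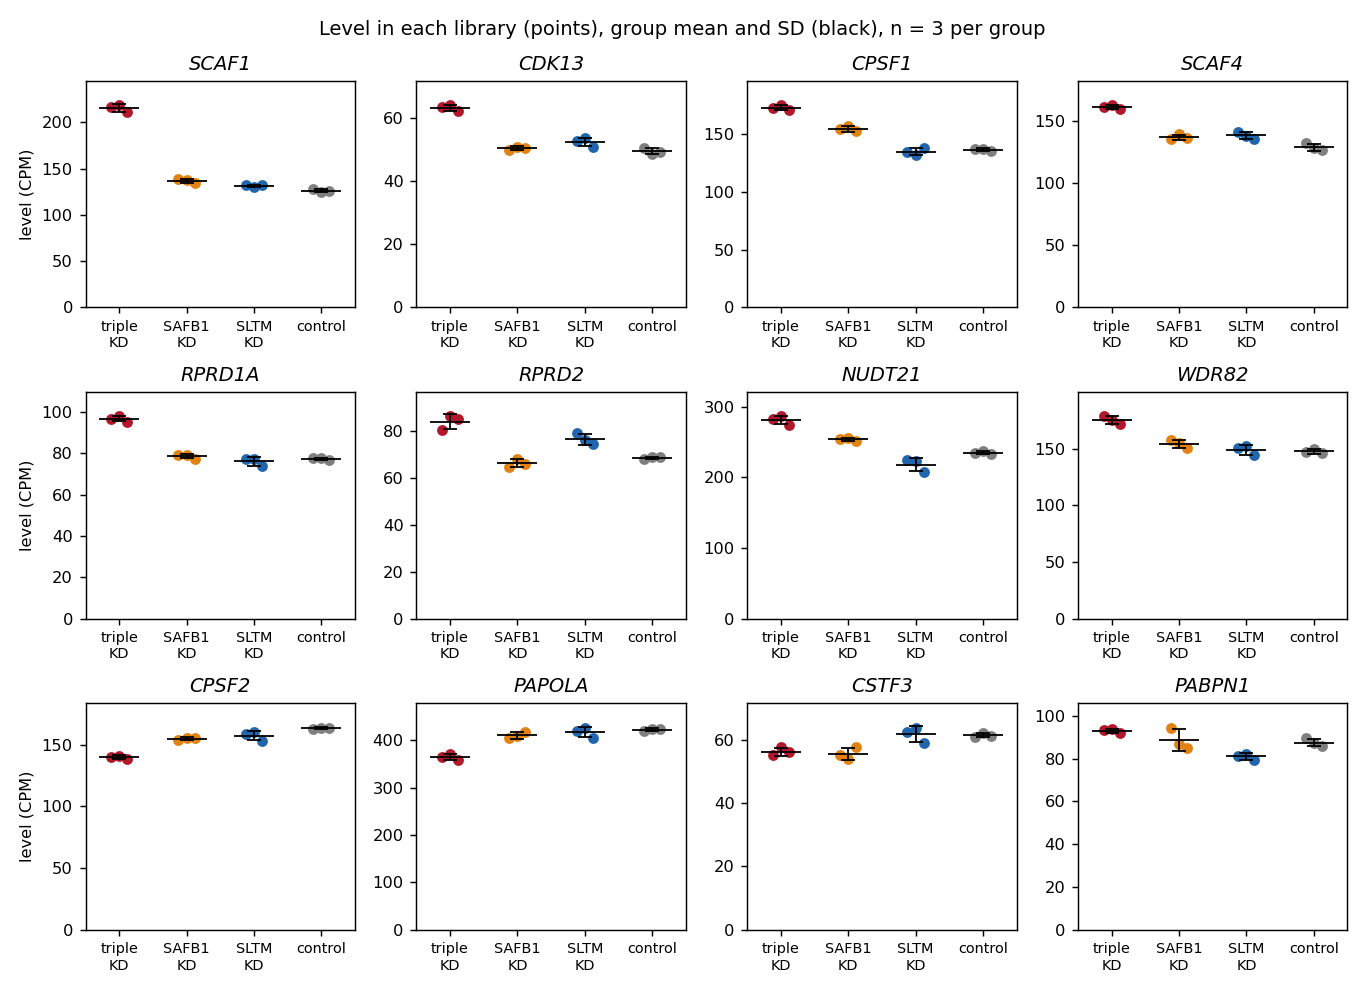
Level in CPM (vertical axes from 0) of 12 members in each of the 12 libraries, with triple KD, SAFB1 KD, SLTM KD and control from left to right; points are libraries and black marks the mean and SD of 3. The triple KD points are highest for SCAF1, CDK13, CPSF1, SCAF4, RPRD1A, RPRD2, NUDT21 and WDR82 and lowest for CPSF2 and PAPOLA. CSTF3 is low in triple KD and SAFB1 KD alike.

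CPSF, the complex that reads the poly(A) signal and cuts, had 5 of its 8 members higher and 1 lower in triple KD. Among expressed genes, 33.9% were higher and 37.3% lower there (71.2% in all). CPSF1, the largest subunit and a scaffold of the signal-reading module, had 173, 175 and 171 CPM in triple KD, 154, 157 and 152 CPM in SAFB1 KD, 134, 132 and 138 CPM in SLTM KD, and 137, 137 and 135 CPM in control. The order was triple KD, then SAFB1 KD, then SLTM KD and control, which overlapped. CPSF1 rose by 0.34 ± 0.023 (adjusted p = 2.16e-20) in triple KD and by 0.18 ± 0.023 (adjusted p = 1.39e-08) in SAFB1 KD, and it was 0.20 ± 0.023 higher in SAFB1 KD than in SLTM KD (adjusted p = 9.24e-10).

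The nuclease module split. CPSF3, the endonuclease, had 122, 122 and 120 CPM in triple KD, 111, 112 and 116 CPM in SAFB1 KD, 114, 116 and 114 CPM in SLTM KD, and 104, 108 and 109 CPM in control. CPSF3 rose by 0.18 ± 0.024 (adjusted p = 4.62e-09) in triple KD, 0.076 ± 0.024 (adjusted p = 0.0328) in SAFB1 KD and 0.096 ± 0.024 (adjusted p = 0.00475) in SLTM KD. CPSF2, its partner without nuclease activity, had 140, 141 and 138 CPM in triple KD, 153, 155 and 155 CPM in SAFB1 KD, 159, 160 and 153 CPM in SLTM KD, and 163, 163 and 164 CPM in control. Control libraries were highest, the single knockdowns were below them and triple KD was lowest. CPSF2 fell by 0.22 ± 0.022 (adjusted p = 2.80e-13) in triple KD, the largest fall among the members there, and by 0.078 ± 0.022 (adjusted p = 0.0134) in SAFB1 KD.

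CPSF4, a zinc finger subunit that contacts the poly(A) signal, had 73.1, 73.2 and 71.6 CPM in triple KD, 66.0, 64.6 and 63.2 CPM in SAFB1 KD, 63.0, 61.2 and 64.1 CPM in SLTM KD, and 64.7, 63.2 and 64.2 CPM in control. Triple KD stood above the other groups, which overlapped, and the rise was 0.18 ± 0.028 (adjusted p = 9.45e-08). SYMPK, the scaffold of the complex, rose by 0.097 ± 0.023 (adjusted p = 0.000318) in triple KD, and RBBP6, an activator of cleavage, by 0.060 ± 0.023 (adjusted p = 0.0287). WDR33, which contacts the signal beside CPSF4, stood at 0.031 ± 0.026 (adjusted p = 0.372) and FIP1L1, which links the complex to poly(A) polymerase, at 0.029 ± 0.036 (adjusted p = 0.576), and neither passed in triple KD, SAFB1 KD or SLTM KD, apart from WDR33 in triple KD with upper-quartile factors.

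CFI, which binds UGUA and is known to favour distal poly(A) sites, holds NUDT21, the member with the largest difference between SAFB1 KD and SLTM KD. NUDT21, its UGUA-reading subunit, had 283, 286 and 275 CPM in triple KD, 254, 255 and 252 CPM in SAFB1 KD, 225, 223 and 208 CPM in SLTM KD, and 235, 237 and 233 CPM in control. The 4 groups did not overlap, with SLTM KD below control, SAFB1 KD above it and triple KD highest. The difference from control was 0.26 ± 0.022 (adjusted p = 1.11e-15) in triple KD, 0.11 ± 0.022 (adjusted p = 0.000276) in SAFB1 KD and -0.11 ± 0.022 (adjusted p = 0.000502) in SLTM KD. Tested directly, NUDT21 was 0.22 ± 0.023 higher in SAFB1 KD than in SLTM KD (adjusted p = 2.10e-11). CPSF6, a partner of NUDT21 with SR-like repeats, averaged 184 ± 3.0 CPM in triple KD, 184 ± 0.87 CPM in SAFB1 KD, 171 ± 2.8 CPM in SLTM KD and 179.5 ± 1.3 CPM in control (SD, n = 3 each). It fell by 0.074 ± 0.022 (adjusted p = 0.0176) in SLTM KD and was 0.11 ± 0.022 higher in SAFB1 KD than in SLTM KD (adjusted p = 0.000112). The alternative partner CPSF7 stood at 0.049 ± 0.024 (adjusted p = 0.0948) in triple KD. Its adjusted p in triple KD was under the threshold in 6 alternatives, among them DESeq2 (adjusted p = 0.0389) and upper-quartile factors (adjusted p = 0.00300), and in SLTM KD with upper-quartile factors (adjusted p = 0.0196).

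CSTF, which binds downstream of the cut, had 2 members higher and 2 lower in triple KD, beside 33.9% and 37.3% of expressed genes. CSTF2, its RNA-binding subunit, had 61.7, 62.0 and 60.8 CPM in triple KD, 64.9, 67.4 and 67.9 CPM in SAFB1 KD, 66.1, 66.1 and 64.9 CPM in SLTM KD, and 65.3, 65.2 and 68.3 CPM in control. Its intronless paralogue CSTF2T had 83.7, 85.4 and 83.7 CPM in triple KD, 83.1, 80.3 and 79.3 CPM in SAFB1 KD, 79.4, 79.5 and 78.6 CPM in SLTM KD, and 78.6, 81.7 and 79.7 CPM in control. CSTF2 fell by 0.11 ± 0.028 (adjusted p = 0.00128) and CSTF2T rose by 0.075 ± 0.026 (adjusted p = 0.0169) in triple KD, and for both genes the single knockdowns overlapped control. CSTF2T lies on the opposite strand inside an intron of PRKG1.

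CSTF3, the scaffold of CSTF, was low in both groups that received the SAFB1 siRNA. It had 55.2, 57.7 and 56.0 CPM in triple KD, 55.2, 54.0 and 57.7 CPM in SAFB1 KD, 62.6, 63.9 and 59.0 CPM in SLTM KD, and 60.8, 62.3 and 61.4 CPM in control. Triple KD and SAFB1 KD overlapped each other and lay below SLTM KD and control. The falls were 0.13 ± 0.030 (adjusted p = 0.000408) in triple KD and 0.15 ± 0.031 (adjusted p = 0.000460) in SAFB1 KD, and the difference between them was 0.019 ± 0.031 (adjusted p = 0.710). CSTF1, the remaining subunit, rose by 0.17 ± 0.030 (adjusted p = 1.97e-06) in triple KD.

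CFII consists of PCF11, which binds the CTD and promotes termination, and CLP1, an RNA kinase that also serves in tRNA splicing. PCF11 had 61.0, 60.6 and 61.0 CPM in triple KD, 54.5, 60.4 and 58.0 CPM in SAFB1 KD, 57.5, 56.9 and 55.8 CPM in SLTM KD, and 54.0, 58.7 and 55.2 CPM in control. The rise in triple KD was 0.12 ± 0.032 (adjusted p = 0.00120), with SAFB1 KD replicate 2 at 60.4 CPM just below the triple KD libraries. CLP1, the least abundant member in CPM, had 17.8, 18.1 and 17.7 CPM in triple KD, 18.8, 17.5 and 18.4 CPM in SAFB1 KD, 16.3, 17.5 and 16.8 CPM in SLTM KD, and 16.8, 16.9 and 15.9 CPM in control. It rose by 0.11 ± 0.046 (adjusted p = 0.0419) in triple KD and 0.14 ± 0.046 (adjusted p = 0.0344) in SAFB1 KD, close to the threshold in both.

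The poly(A) polymerases moved in opposite directions. PAPOLA, the main nuclear poly(A) polymerase and the most abundant member in CPM, had 365, 372 and 358 CPM in triple KD, 405, 409 and 418 CPM in SAFB1 KD, 420, 427 and 406 CPM in SLTM KD, and 420, 424 and 424 CPM in control. Triple KD was below every other library, with a fall of 0.21 ± 0.020 (adjusted p = 3.47e-14). SAFB1 KD lay below every control library, but PAPOLA did not pass the test there, at -0.042 ± 0.020 (adjusted p = 0.200). It passed without SLTM KD replicate 3 (adjusted p = 0.047). Its paralogue PAPOLG had 29.37, 30.03 and 29.83 CPM in triple KD, 28.4, 29.1 and 27.9 CPM in SAFB1 KD, 27.5, 27.5 and 26.9 CPM in SLTM KD, and 24.97, 27.67 and 25.97 CPM in control. PAPOLG rose by 0.18 ± 0.038 (adjusted p = 5.77e-05) in triple KD and 0.12 ± 0.038 (adjusted p = 0.0332) in SAFB1 KD. PABPN1, the nuclear poly(A)-binding protein that sets tail length, had 93.2, 93.8 and 91.9 CPM in triple KD, 94.5, 86.7 and 84.9 CPM in SAFB1 KD, 81.3, 82.3 and 79.4 CPM in SLTM KD, and 89.4, 87.1 and 85.9 CPM in control. It rose by 0.088 ± 0.028 (adjusted p = 0.00807) in triple KD and fell by 0.11 ± 0.029 (adjusted p = 0.00555) in SLTM KD, and SAFB1 KD replicate 1 stood above the other SAFB1 KD libraries. The read-through gene BCL2L2-PABPN1 shares 39.3% of the exon bases of PABPN1 on the same strand, which makes its counts uncertain.

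Of the 5 termination factors, 3 rose and 1 fell in triple KD, beside 33.9% of expressed genes higher and 37.3% lower (71.2% in all). WDR82, a subunit of the PNUTS-PP1 phosphatase complex that slows the polymerase past the poly(A) site, had 179, 175 and 172 CPM in triple KD, 158, 155 and 150 CPM in SAFB1 KD, 150, 153 and 144 CPM in SLTM KD, and 147, 150 and 146 CPM in control. It rose by 0.25 ± 0.023 (adjusted p = 6.59e-14) in triple KD, and SAFB1 KD, above every control library, stood at 0.064 ± 0.024 (adjusted p = 0.0790, or 0.0316 without SAFB1 KD replicate 3). XRN2, the exonuclease of the torpedo model, had 237, 236 and 240 CPM in triple KD, 216, 216 and 223 CPM in SAFB1 KD, 219, 226 and 219 CPM in SLTM KD, and 223, 219 and 222 CPM in control. Triple KD alone stood apart, by 0.10 ± 0.021 (adjusted p = 4.69e-05). TOX4, another subunit of the PNUTS complex, rose by 0.092 ± 0.025 (adjusted p = 0.00191), and SSU72, a CTD phosphatase, fell by 0.054 ± 0.022 (adjusted p = 0.0449). PPP1R10, which encodes PNUTS itself, stood at -0.012 ± 0.022 (adjusted p = 0.730) in triple KD, with 141.8 to 156.8 CPM over the 12 libraries. Against control it was called in SLTM KD with upper-quartile factors (adjusted p = 0.0167), filterByExpr (adjusted p = 0.0452) and DESeq2 (adjusted p = 0.0453).

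Fewer members were called in the single knockdowns. The members' median absolute log2 fold change was 0.0431 in SAFB1 KD and 0.0284 in SLTM KD, against 0.0494 and 0.0466 over the expressed genes. In SAFB1 KD, 8 members rose and 3 fell against control (32.4%), beside 9.66% of all genes tested (5.04% higher, 4.62% lower) and 20.5% of expressed genes (11.9% higher, 8.64% lower). In 17 of 34 members SAFB1 KD did not overlap control, beside 25.2% of all genes tested and 41.5% of expressed genes. In SLTM KD, 3 rose and 3 fell (17.6%), beside 9.26% of all genes tested (3.6% higher, 5.65% lower) and 20.2% of expressed genes (6.85% higher, 13.4% lower), so the SLTM KD share was close to that of expressed genes, which were not matched to the members' levels. In 13 members (38.2%) SLTM KD did not overlap control, beside 23.9% of all genes tested and 38.3% of expressed genes. The count of 8 in SAFB1 KD became 3 without control replicate 3, 4 without control replicate 1 or 2, SAFB1 KD replicate 1 or 2, or triple KD replicate 1 or 2, and 5 without SLTM KD replicate 2. The count of 3 higher in SLTM KD became 9 with upper-quartile factors, 6 with filterByExpr and 5 in DESeq2, and it became 2 without control replicate 1 and 5 without SLTM KD replicate 3. In SAFB1 KD, CPSF1, CPSF2, CSTF3, NUDT21 and SCAF1 (5 of 11) passed under all 20 alternative settings, and in SLTM KD, NUDT21, RPRD2 and SCAF4 (3 of 6) did. CPSF3 and SCAF4 were called higher in both, and NUDT21 was called in both with opposite signs.

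The other single-knockdown calls ended when a library was left out. In SAFB1 KD, RPRD1B lost its call without control replicate 1 or SAFB1 KD replicate 3 (adjusted p 0.0558 to 0.0760) and SCAF4 without control replicate 2 or 3 or SAFB1 KD replicate 2 (0.0730 to 0.139). SYMPK lost it without any of 10 libraries, all but SAFB1 KD replicate 3 and triple KD replicate 3 (0.0515 to 0.363), and CPSF3 without any of 9, all but SLTM KD replicate 1 or 3 and triple KD replicate 3 (0.0630 to 0.254). CLP1 lost it without any control library, SAFB1 KD replicate 1 or 3 or triple KD replicate 1 or 2 (0.0583 to 0.277), and PAPOLG without control replicate 1 or 3, SAFB1 KD replicate 1 or 2, SLTM KD replicate 2 or triple KD replicate 1 or 2 (0.0547 to 0.261). In SLTM KD, CPSF3 (0.0657) and PABPN1 (0.0630) lost their calls without control replicate 1, and CPSF6 without control replicate 2 or SLTM KD replicate 3 (0.0544 to 0.0595). With all libraries kept, CLP1, CPSF3, PAPOLG and SYMPK also lost their SAFB1 KD calls with no filter. CPSF6 lost its SLTM KD call with upper-quartile factors.

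Compared directly, 5 members were higher and 5 lower in SAFB1 KD than in SLTM KD (29.4%, beside 16.0% of all genes tested, 9.27% higher and 6.78% lower, and 33.5% of expressed genes, 22.2% higher and 11.2% lower). CPSF1, NUDT21, PABPN1, CPSF6 and CCNK were higher in SAFB1 KD, and RPRD2, CSTF3, PPP1R10, RPRD1B and RBBP6 were lower. PPP1R10 differed by -0.098 ± 0.023 (adjusted p = 0.000890). CCNK lost its call (adjusted p 0.0809 to 0.12) without SAFB1 KD replicate 1 or 2 or SLTM KD replicate 2 or 3, as did PABPN1 (0.0739) and RBBP6 (0.0614) without SAFB1 KD replicate 1, and RPRD1B (0.057 to 0.0787) without SAFB1 KD replicate 2 or 3 or SLTM KD replicate 2.

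In triple KD, 21 of the 29 calls against control passed under all 20 alternatives. The other 8 ended when a library was left out. RBBP6 lost its call without control replicate 2 or 3 or triple KD replicate 2 or 3 (adjusted p 0.072 to 0.118). CCNK lost it without control replicate 3 or triple KD replicate 1 or 2 (0.105 to 0.241). CSTF2T lost it without control replicate 1 or 3 or triple KD replicate 2 (0.0577 to 0.0876). SCAF8 lost its call without control replicate 2 or 3 or triple KD replicate 2 (0.0531 to 0.0691), PABPN1 without control replicate 3 (0.0658), and CLP1 without control replicate 3 or any triple KD library (0.063 to 0.231). RPRD1B lost it without control replicate 1 or 2 or triple KD replicate 1 or 3 (0.0838 to 0.12), and SSU72 without control replicate 1 or 3, SLTM KD replicate 1 or triple KD replicate 1 or 2 (0.0513 to 0.189). With all libraries kept, both also lost their calls in DESeq2 and in edgeR with DESeq2 size factors, upper-quartile factors or filterByExpr. RBBP6, CCNK, CSTF2T and CLP1 lost theirs with no filter.

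To ask whether triple KD went past the joint effect of the single knockdowns, the triple KD effect was set against the added effects of both in the same fit, called the sum below. The triple KD effect was above the sum in 11 members and below it in 3 (41.2%, beside 21.4% of all genes tested, 9.48% above and 11.9% below, and 44.6% of expressed genes, 19.6% above and 25.0% below). The share above the sum was 32.4% of members. SCAF1 exceeded the sum by 0.60 ± 0.032 (adjusted p = 7.84e-24), RPRD1A by 0.32 ± 0.037 (adjusted p = 2.23e-10), NUDT21 by 0.26 ± 0.032 (adjusted p = 1.56e-09) and CDK13 by 0.24 ± 0.042 (adjusted p = 5.74e-06). CPSF4, RPRD2, CPSF1, PABPN1, WDR82, SCAF4 and XRN2 exceeded it by 0.12 to 0.20. CPSF6 was not called at 0.077 ± 0.030 (adjusted p = 0.0616), but it passed in 12 of 19 alternatives, among them DESeq2 and limma-voom. CSTF2, at -0.11 ± 0.040 (adjusted p = 0.0510), passed in 3. The count of 11 above the sum was 12 in the alternatives that kept all libraries, and 11 to 14 with a library left out. PAPOLA lay below the sum by 0.15 ± 0.028 (adjusted p = 1.79e-05). CPSF2 at -0.092 ± 0.032 (adjusted p = 0.0280) and CDK12 at -0.087 ± 0.030 (adjusted p = 0.0258) were also called, and each lost its call without 10 of the 12 libraries in turn, for CPSF2 all but replicate 3 of SAFB1 KD and of SLTM KD (adjusted p 0.0638 to 0.176), for CDK12 all but SAFB1 KD replicate 1 and SLTM KD replicate 3 (0.057 to 0.185). SAFB2 was knocked down only in triple KD, so a SAFB2 effect of its own cannot be told apart from an effect beyond the sum.

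**Figure D3:**
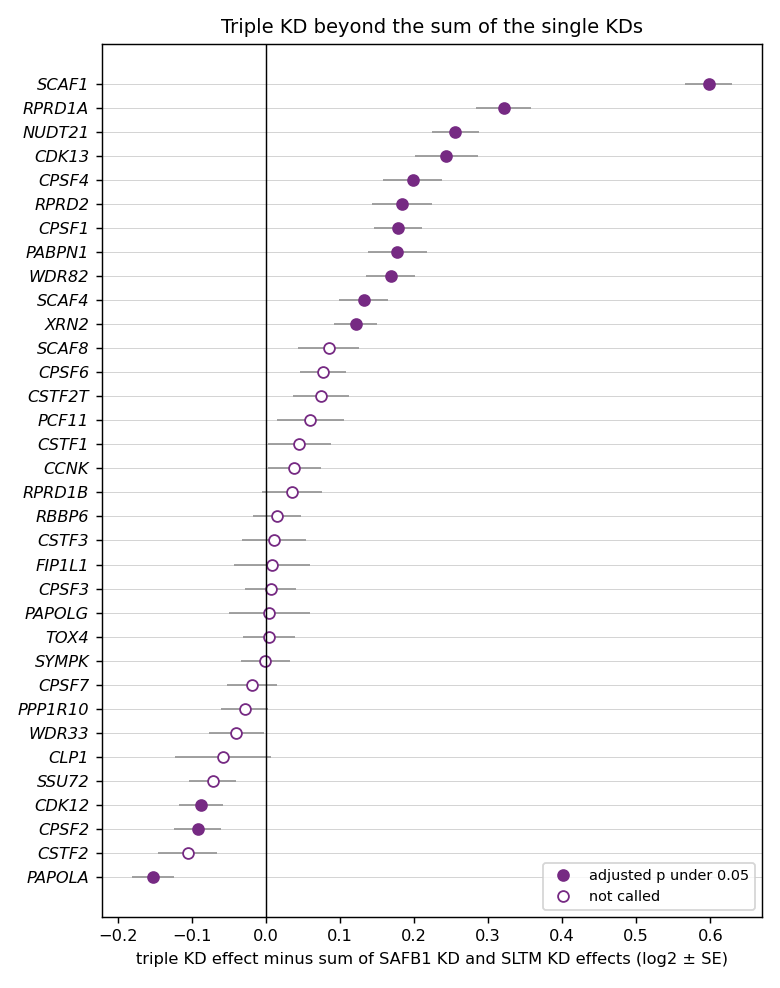
Triple KD effect minus the added effects of SAFB1 KD and SLTM KD (log2, horizontal axis) for the 34 members (vertical axis, sorted), with bars of 1 SE; filled points passed an adjusted p of 0.05. SCAF1 lies highest at 0.60 and PAPOLA lowest at -0.15, and 11 filled points are above 0 and 3 below.

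Against the single knockdowns directly, triple KD was higher than SAFB1 KD in 15 members and lower in 5 (58.8%), beside 34.9% of all genes tested (16.2% higher, 18.6% lower) and 65.1% of expressed genes (27.6% higher, 37.5% lower). It was higher than SLTM KD in 20 and lower in 7 (79.4%), beside 36.3% of all genes tested (17.5% higher, 18.8% lower) and 66.2% of expressed genes (33.5% higher, 32.7% lower). SCAF1 led both, at 0.65 ± 0.022 (adjusted p = 4.16e-34) and 0.71 ± 0.022 (adjusted p = 4.03e-36). RPRD2 came next against SAFB1 KD at 0.34 ± 0.029 (adjusted p = 6.22e-16), and NUDT21 next against SLTM KD at 0.37 ± 0.022 (adjusted p = 9.88e-22). PAPOLA was the lowest in both, at -0.17 ± 0.020 (adjusted p = 1.13e-10) and -0.19 ± 0.020 (adjusted p = 1.18e-12). The count of 15 higher than SAFB1 KD became 22 with upper-quartile factors. Of members not called, CSTF2T and PABPN1 passed against SAFB1 KD in 10 alternatives each, and TOX4 against SLTM KD in 10. Against SAFB1 KD, calls ended for SCAF8 without SAFB1 KD replicate 2 (adjusted p 0.0624), PCF11 without SAFB1 KD replicate 1 or 3, SLTM KD replicate 1 or triple KD replicate 1 or 3 (0.0515 to 0.299) and SSU72 without SAFB1 KD replicate 1 or 3 or triple KD replicate 1 or 2 (0.0577 to 0.188). Against SLTM KD, they ended for CSTF1 without SLTM KD replicate 3 (0.0539), SYMPK without SLTM KD replicate 2 (0.0578), PPP1R10 without SLTM KD replicate 1 or triple KD replicate 3 (0.0586 to 0.0941), SCAF8 without SLTM KD replicate 3 or triple KD replicate 2 (0.0599 to 0.300) and SSU72 without SLTM KD replicate 2 or 3 or triple KD replicate 1 or 2 (0.0642 to 0.203).

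Several of the members are paralogues that share a role, and in 5 of 6 such pairs the ratio in triple KD did not overlap control. The same held for 76.5% of single expressed genes, and the share among ratios of other gene pairs was not computed. The ratio of counts within a library does not depend on how libraries are scaled. The log2 ratio of CDK12 to CDK13 was 1.74, 1.76 and 1.77 in triple KD and 2.16, 2.23 and 2.21 in control, that of PAPOLA to PAPOLG was 3.64, 3.63 and 3.58 in triple KD and 4.07, 3.94 and 4.03 in control, and that of RPRD1A to RPRD1B was 0.72, 0.70 and 0.71 in triple KD and 0.31, 0.31 and 0.33 in control. The differences of the means were -0.44, -0.40 and 0.39. The log2 ratio of SCAF4 to SCAF8 was 0.24 higher, and that of CSTF2 to CSTF2T 0.18 lower (a difference of -0.18), in triple KD than in control.

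CPSF6 to CPSF7 was the exception. Its log2 ratio was 0.59, 0.56 and 0.54 in triple KD, 0.43, 0.46 and 0.43 in SLTM KD, and 0.60, 0.55 and 0.57 in control, so that SLTM KD alone lay below control, by a difference of -0.14. Over the 18 comparisons of a ratio with control, 11 had no overlap. In the exact permutation test, two-sided, each of these gave p = 0.1, which 3 libraries against 3 cannot go below, and 0.164 after Benjamini-Hochberg adjustment over the 18, so no ratio could pass 0.05.

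**Figure D4:**
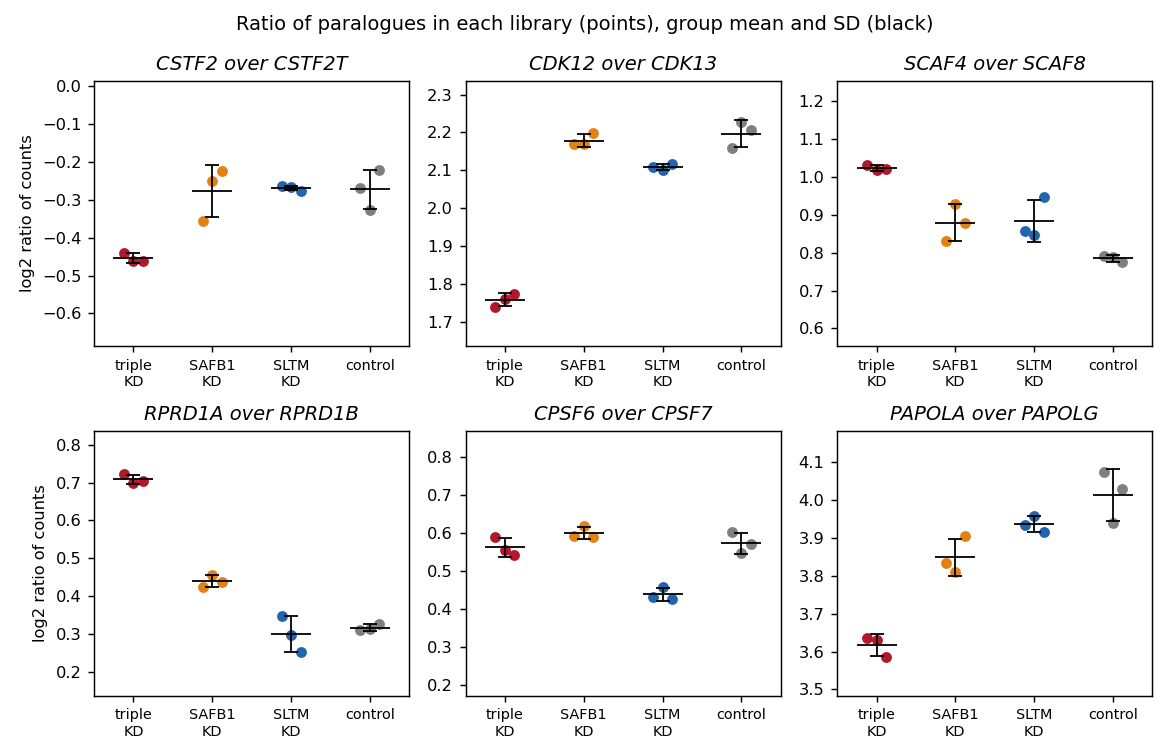
Log2 ratio of counts (vertical axes, all spanning the same range) of 6 paralogue pairs in each library, with triple KD, SAFB1 KD, SLTM KD and control from left to right; points are libraries and black marks the mean and SD of 3. In triple KD the ratios of CDK12 to CDK13, PAPOLA to PAPOLG and CSTF2 to CSTF2T are lowest and those of SCAF4 to SCAF8 and RPRD1A to RPRD1B highest, and CPSF6 to CPSF7 is low in SLTM KD.

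Per kilobase of annotated exon, a scale on which genes can be compared, XRN2 was the highest in every group, at 69.7 ± 0.56 CPM per kb in triple KD and 65.0 ± 0.60 in control (SD, n = 3 each). SCAF1 and NUDT21 were next in triple KD at 48.2 ± 0.91 and 47.4 ± 1.0 CPM per kb, within their spread of each other. In control, NUDT21 had 39.6 ± 0.35 CPM per kb, then PAPOLA 31.1 ± 0.16, CPSF3 29.1 ± 0.66, PPP1R10 28.4 ± 0.15 and SCAF1 28.3 ± 0.34, of which the last 3 did not differ beyond their spread. CDK13 had 2.56 ± 0.038 CPM per kb in triple KD and 2.0 ± 0.038 in control, and CDK12 16.5 ± 0.22 and 17.5 ± 0.098. The length used is the union of all annotated exons, which lowers this level for genes with long exons that these cells may not use.

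The genes were then set beside sequence features that the choice of members did not use. GAAGAA is a purine-rich word of the kind that SAFB proteins bind in RNA, and it occurs in the coding sequence of 26 of the 34 members, beside 73.5% of coding expressed genes, at a median of 1.43 words per kb in members and 1.07 in those genes. It was searched on the transcript strand only, and overlapping copies were each counted. SCAF1 has the longest coding exon of all members, 2838 bases (chr19:49650868-49653705, plus strand, exon 7 of 11), with 8 such words. The 30 bases of that exon with most of them are shown with the words in capitals, beside a window from RPRD2 (exon 11 of 11, 2771 bases, 3 words) and from RBBP6 (exon 17 of 18, 1755 bases, 7 words), on GRCh38.
SCAF1, chr19:49652294-49652323: ggacggtggcggcagcaaGAAGAAGAAGAA
RPRD2, chr1:150470648-150470677: acaccacagtctctaccataaaggGAAGAA
RBBP6, chr16:24569482-24569511: ataagcataagaaacacagaaaaaGAAGAA
SCAF1 and RPRD2, which have the longest coding exons of the members, rose by 0.77 and 0.29 in triple KD. RBBP6, with 7 words in its exon, rose by 0.060, and CSTF2T, with an exon of 1848 bases and 0 words, by 0.075. CPSF2, with 10 words in its coding sequence, fell by 0.22. The part of these words and exons in any value was not tested.

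Spearman's rho with the log2 fold change in triple KD was 0.096 for the length of the longest coding exon, -0.16 for the span of the gene and -0.034 for GAAGAA words per kb of coding sequence, over 34 genes that share the same libraries. The 9 members with a coding exon of at least 1000 bases had a median of 0.085, and the 25 without one 0.092. Over the 9735 coding expressed genes, 1372 (14.1%) had such an exon, and these had a median of 0.030 in triple KD beside -0.016 for the rest, with 41.7% and 32.7% called higher.

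A stretch complementary to the seed of a guide strand, searched on the transcript strand, occurred in the 3′ UTR of 6 members for the SAFB1 siRNA (ATCAGAA, in 17.2% of 15766 genes), 3 for the SAFB2 siRNA (ATGGATA, 10.2%) and 0 for the SLTM siRNA (ATTCGTG, 2.22%). CPSF2, the member with the largest fall in triple KD, holds matches to both the SAFB1 and the SAFB2 siRNA. So does CDK13, the one with the largest rise after SCAF1. CPSF6 also holds both, and it stood at 0.039 in triple KD (adjusted p = 0.153). It was called there with upper-quartile factors and with filterByExpr. The sites of CPSF2 and CDK13 are shown on the plus strand of GRCh38 with the match in capitals.
CPSF2, SAFB1 siRNA, chr14:92167793-92167799: agagttttATCAGAAgattattg
CPSF2, SAFB1 siRNA, chr14:92169980-92169986: tattaaaaATCAGAAaaattggc
CPSF2, SAFB2 siRNA, chr14:92165138-92165144: tccaccgaATGGATAtaccacat
CDK13, SAFB1 siRNA, chr7:40095380-40095386: ttacaacaATCAGAAagggcact
CDK13, SAFB2 siRNA, chr7:40096054-40096060: catttgccATGGATAattggagg
CDK13, SAFB2 siRNA, chr7:40098925-40098931: tttcatatATGGATAatctttga
CPSF6, RPRD2, CDK12 and WDR33 also hold the SAFB1 stretch, and in SAFB1 KD their log2 fold changes were 0.035, -0.048, 0.0072 and 0.044, none of them called. The part of these matches in any value was not tested.

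Lists of related genes, taken by function though with earlier results of these data known, went in both directions in triple KD. Beside each list in this and the next paragraph, 33.9% of expressed genes were higher and 37.3% lower (71.2% in all). No set test was run. Of 16 other CTD kinases and phosphatases, 7 rose and 4 fell, led by CDK19, a Mediator kinase, which rose by 0.96 ± 0.046 (adjusted p = 3.74e-27), CTDP1, the phosphatase FCP1, which fell by 0.34 ± 0.036 (adjusted p = 2.14e-12), and CTDSP1, which rose by 0.21 ± 0.029 (adjusted p = 3.90e-09). Of 16 elongation factors, 5 rose and 4 fell. The smallest adjusted p belonged to ELL2, a super elongation complex subunit, which fell by 0.91 ± 0.030 (adjusted p = 1.70e-35), to IWS1, a partner of SPT6, which fell by 0.57 ± 0.028 (adjusted p = 1.56e-26), and to RTF1 of the PAF complex, which rose by 0.35 ± 0.024 (adjusted p = 4.14e-20).

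Integrator, which cleaves snRNAs and early transcripts with a nuclease related to CPSF3, had 4 of 14 subunits higher and 5 lower in triple KD, with INTS9 at 0.45 ± 0.038 (adjusted p = 1.11e-15), INTS14 at 0.28 ± 0.024 (adjusted p = 2.65e-15) and INTS2 at -0.34 ± 0.031 (adjusted p = 1.16e-14). Factors of histone 3′ end processing had 3 of 7 higher and 1 lower, with ZNF473 at 0.34 ± 0.035 (adjusted p = 9.83e-13) and LSM11 at 0.22 ± 0.033 (adjusted p = 1.16e-07). Nuclear RNA decay and poly(A) surveillance had 6 of 19 higher and 9 lower, with NKRF at -0.29 ± 0.027 (adjusted p = 2.41e-14), ZC3H4, a restrictor of early transcription, at 0.27 ± 0.026 (adjusted p = 2.27e-13) and the exosome nuclease EXOSC10 at -0.18 ± 0.022 (adjusted p = 2.81e-10). The U1 snRNP, which masks early poly(A) sites, had 2 of 3 proteins lower, SNRNP70 by a difference of -0.065 ± 0.019 (adjusted p = 0.00417) and SNRPC by -0.059 ± 0.022 (adjusted p = 0.0290), and SNRPA was at -0.0054 ± 0.023 (adjusted p = 0.894).

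Among long DNA repair genes whose full-length transcripts are known to need CDK12, 4 of 6 on the list fell and 1 rose in triple KD, beside 37.3% of expressed genes lower and 33.9% higher, with BRCA2 at -0.60 ± 0.035 (adjusted p = 5.84e-23), ATR at -0.44 ± 0.035 (adjusted p = 7.83e-17), and FANCI at 0.26 ± 0.021 (adjusted p = 1.25e-16). CDK12 itself was 0.942 of its control level in triple KD, and CDK13 1.28 of its own. In SAFB1 KD 2 of the 6 fell, BRCA2 by 0.35 (adjusted p = 3.18e-12) and ATM by 0.090 (adjusted p = 0.0398), beside 8.64% of expressed genes. CDK12 stood at 0.0072 (adjusted p = 0.901) in SAFB1 KD. In SLTM KD 2 of the 6 rose, beside 6.85% of expressed genes. The part of CDK12 in the values of these genes was not tested. BRCA2 had 34.5, 32.9 and 31.0 CPM in triple KD, 38.8, 38.8 and 39.2 CPM in SAFB1 KD, 51.7, 49.3 and 47.3 CPM in SLTM KD, and 49.3, 49.9 and 49.6 CPM in control, with SLTM KD and control overlapping.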

How the data were processed

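Poly(A)-selected RNA from 12 libraries (4 groups of 3) was measured as raw read counts per gene. Per the labels and the study's methods, the authors trimmed adapters, aligned reads to GRCh38 with STAR 2.7.9a and deposited reverse-stranded gene counts on GENCODE 29. Of the deposited IDs, 99.03% matched GENCODE 44, which gave exons and lengths. Genes with at least 10 counts over the 12 libraries were fitted together in edgeR 4.0.16 (R 4.3.3; TMM, quasi-likelihood test, Benjamini-Hochberg over all 26688 genes), and CPM are TMM-scaled. On simulated counts for triple KD against control (26206 genes), 50 of 50 genes were called at each log2 change of 0.5, -0.5, 1 and -1. Every simulated gene was given the same spread, and smaller changes were not simulated. How well changes as small as those of most members are detected was therefore not measured. Library depth was 56856228 to 75533510 counts.

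Members and lists were chosen with earlier results of these data known. Values in every library are given for the 12 members with the largest called change in triple KD, the 3 largest in each single knockdown, those called beyond the sum, paralogues whose ratio did not overlap, and CPSF3, PCF11, CDK12 and PAPOLA; for each related list, up to 3 genes with the smallest adjusted p. Alternatives were other scalings, filters, DESeq2 1.42.0, limma-voom (limma 3.58.1), only the compared libraries, a replicate block, and each library left out.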

Additional observations from a re-analysis of the deposited data

How the results depend on the processing

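No called direction reversed among the members under the 20 alternatives. Members called higher in SAFB1 KD (8) numbered 4 with no filter and 3 to 8 with a library left out. Members called higher in SLTM KD (3) numbered 9 with upper-quartile factors, 6 with filterByExpr, 5 in DESeq2, and 2 to 5 with a library left out. Members higher in SAFB1 KD than in SLTM KD (5) numbered 3 to 6, and members below the sum (3) numbered 1 to 3 with a library left out and 1 with upper-quartile factors or no filter. Over all genes, calls higher in SAFB1 KD (1345) numbered 750 to 1341 with a library left out, and those higher in SLTM KD (962) numbered 565 to 1048, or 1552 with upper-quartile factors. The causes of these shifts were not tested. In triple KD, members called higher ranged from 16 to 25 and lower from 5 to 7. Of single-gene results in triple KD against control, 632 kept their side of the threshold, 9 gained and 39 lost a call.

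Replicate numbers share no stated origin. To look for one, the group mean of each expressed gene was subtracted from its log2 CPM. These deviations correlated at -0.046 to 0.262 between same-numbered libraries of different groups (13 of 18 pairs over 0.1). For 11 of 12 libraries they correlated best with libraries of the same number, a hint from the data and not the design. With a replicate block, members called higher in SLTM KD numbered 7, with CDK13 (adjusted p = 0.0366), CPSF7 (0.0443), PPP1R10 (0.0464) and RBBP6 (0.0261) gained, and WDR82 was gained in SAFB1 KD (0.0196). A fit of the sum with only the compared libraries equals the fit of all 12 and was not run.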
